A study of Mus musculus with 12 samples.

Results

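The genes that encode the Wnt, FGF and TGF-beta signals, their receptors and their nearest regulators were followed while mouse embryonic stem (ES) cells differentiated at random. Members were taken by gene symbol alone: the numbered Wnt, Fzd, Dkk and Sfrp genes, the numbered Fgf and Fgfr genes, and the genes whose symbols begin with Bmp, Tgfb, Inhb or Acvr or with Gdf or Smad and a number. Bmp4 and Gdf3 were left out. This gave 106 of the 9212 genes measured, through 114 of 11520 probes. The Wnt pathway had 36 genes (19 ligands, 9 receptors and 8 secreted inhibitors), the FGF pathway 26 (22 ligands and 4 receptors) and the TGF-beta pathway 44 (22 ligands, 11 receptors, 7 Smads and 4 others, Bmp1, Bmp2k, Bmper and Tgfbi). These roles follow the symbols, so the FGF ligands include intracellular homologous factors such as Fgf11, which are not secreted ligands. The ES cells were of the R1 line, undifferentiated, kept on gelatin with leukemia inhibitory factor. Embryoid bodies (EB), the aggregates in which ES cells begin to differentiate, were dissociated and plated with serum for 4, 8, 15 or 21 days. No other agent or genetic change is named in the labels. RNA of EB of 1 day and RNA of ES cells shared each of 12 arrays, 3 arrays a day, and each value is the deposited log2 ratio of the 2 channels.

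These pathways pattern the early embryo. A Wnt ligand binds a Frizzled receptor (Fzd) with a co-receptor and keeps beta-catenin from being degraded, so that it can act with TCF and LEF factors on target genes, while the Dkk and Sfrp proteins block the signal outside the cell. FGF ligands bind receptor tyrosine kinases (Fgfr) and act largely through Ras and MAP kinase, a route that carries ES cells out of the ground state. TGF-beta, activin, BMP and GDF ligands bind pairs of serine/threonine kinase receptors that phosphorylate Smad proteins, and members of this family drive the formation of mesoderm and endoderm and, later, the laying down of matrix.

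A positive ratio is read here as more RNA in EB, which is likely and not settled. The labelling protocols give Cy5 to EB RNA, whereas the sample titles and dye fields imply the opposite, and marker genes with known behaviour, such as Zfp42 and Nanog (negative) and Afp and Ttr (positive), were used to choose the direction. Under the opposite reading higher and lower trade places throughout, with no change in any p or count of calls. No dyes were swapped, so a gene's dye effect stays in its ratio. The ES channel is on every array, so its spread between arrays is part of the spread of the ratio. If 1 ES preparation served all arrays, the spread between ES cultures is left out of the test. Whether the 3 arrays of a day hold RNA of different cultures is not stated, so the p-values reflect the spread of these arrays alone, and that spread may be technical. The arrays also fell into 2 sets, which the labels do not name, by the 96 features without a gene that stand at fixed places on the array: their median was between -0.31 and 0.064 on 7 arrays (the first set) and between -1.54 and -1.04 on 5 (the second set). The second set held day 4 array 3, day 8 arrays 2 and 3, day 15 array 3 and day 21 array 3, so every day had arrays of both. Day 8 array 2 was less clearly placed than the others, with quartiles of -1.32 and -0.08 around its median of -1.04. In bulk RNA, fewer cells of a type and less RNA per cell cannot be told apart.

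Most signalling genes did not pass the test against ES cells on any day. A gene that did not pass may still differ: in simulated data for day 21 the fit recovered 61% of shifts of 0.5. The simulation covered no other day, so the share recovered there is not known. Each gene was tested against 0 with limma, adjusted by Benjamini-Hochberg over 10689 features at a threshold of 0.05. At day 4 no member passed, against 0% of all features, with 3 members and 1081 features (10.1%) at an unadjusted p under 0.05. At day 8, 2 members passed (1.89%, against 2.28% of all features; 1 higher, against 1.23%, and 1 lower, against 1.06%), at day 15 10 members (9.43%, against 10.6%) and at day 21 16 members (15.1%, against 18.7%). In this fit these shares lay near or below the background. Of the 106 genes 86 passed on no day, and the share of all features that passed on no day was not counted. Of the 20 members that passed, 5 were Wnt, 2 FGF and 13 TGF-beta genes. The calls leaned toward higher values: 8 higher and 2 lower at day 15, against 5.66% and 4.9% of all features, and 12 higher and 4 lower at day 21, against 8.78% and 9.93%.

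The median sizes were small, in members as over all features. The median size of a member's mean ratio was 0.0807 at day 4, 0.103 at day 8, 0.124 at day 15 and 0.167 at day 21, beside 0.0862, 0.108, 0.128 and 0.152 over all features. A mean of at least 0.5 in size was reached by 0, 3, 5 and 6 members on the 4 days (6 are 5.66%), against 1.9%, 4.32%, 7.47% and 9.97% of all features. The sign was less even: 34 members (32.1%) lay above 0 on all 3 arrays of day 21 and 15 (14.2%) below 0 on all 3, against 27.8% and 26.6% of all features. At day 15 it was 33 (31.1%) and 15 (14.2%), against 24.4% and 23.3%, at day 8 30 (28.3%) and 13 (12.3%), against 22.2% and 21.9%, and at day 4 the members divided evenly, with 15 (14.2%) on either side, against 14.8% and 15.4%.

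By pathway, the calls at day 21 were 4 of 36 Wnt genes (11.1%), 2 of 26 FGF genes (7.69%) and 10 of 44 TGF-beta genes (22.7%). Of all features 18.7% were called at day 21, 10.6% at day 15 and 2.28% at day 8. At day 15 the pathway calls were 3 (8.33%), 2 (7.69%) and 5 (11.4%), and both calls of day 8 were TGF-beta genes (4.55%). All Wnt calls were higher in EB, and the FGF calls were 1 higher and 1 lower on each late day. The TGF-beta calls were 4 higher and 1 lower at day 15 and 7 higher and 3 lower at day 21. Of all features, 5.66% were called higher and 4.9% lower at day 15, and 8.78% and 9.93% at day 21. The median ratio of the Wnt genes was 0.013, 0.038, 0.084 and 0.086 on days 4, 8, 15 and 21, that of the FGF genes 0.021, 0.017, 0.019 and 0.093, and that of the TGF-beta genes -0.034, -0.0085, 0.075 and 0.063. Single arrays move these: the TGF-beta median was 0.039 without day 15 array 1, 0.154 without day 15 array 3 and 0.128 without day 21 array 3, the FGF median 0.031 without array 1 and 0.0049 without array 2 of day 15 and 0.051 with array 3 of day 21 left out, and the Wnt median 0.052 without day 21 array 2. Over all features the median lay between -0.0011 and 0.0074. No test of a pathway as a whole was made.

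**Figure D1:**
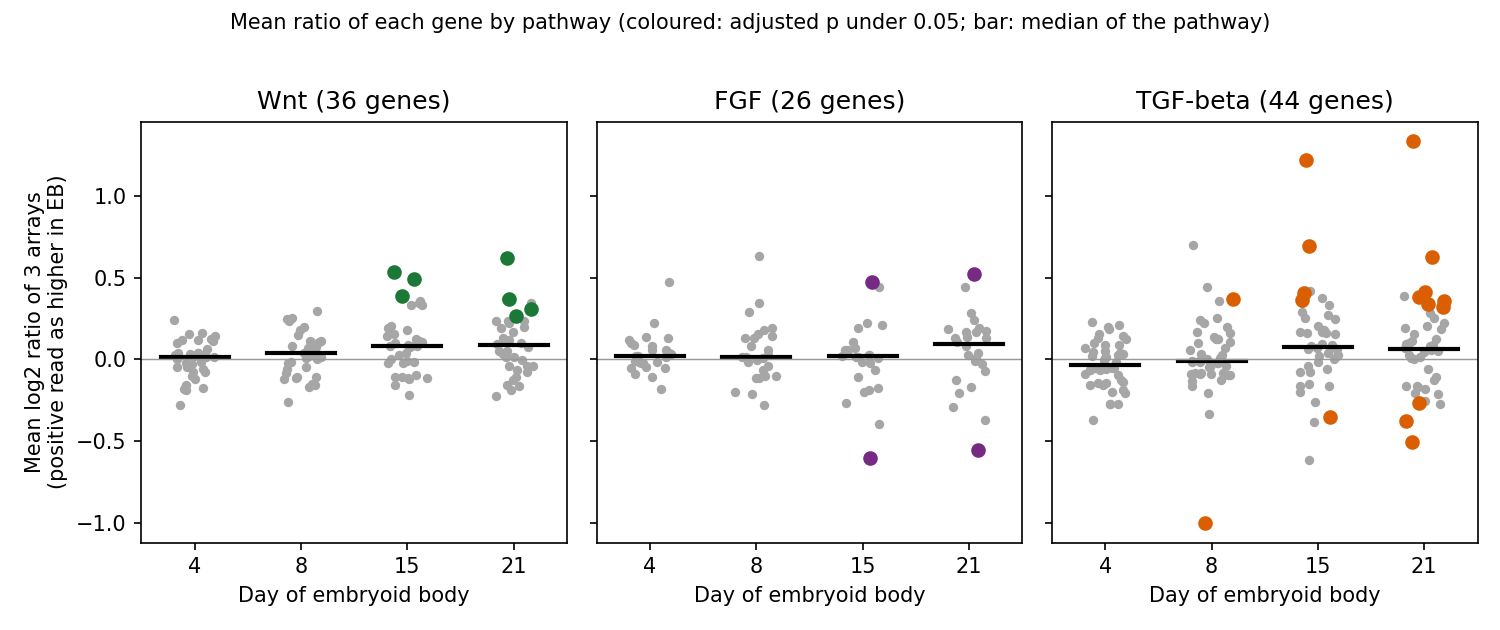
Mean log2 ratio (vertical axis, mean of 3 arrays, positive read as higher in EB) of each Wnt, FGF and TGF-beta gene on days 4, 8, 15 and 21 of EB culture (horizontal axis), with called genes coloured and the pathway median as a bar. The medians stay between -0.034 and 0.093, no gene is coloured at day 4, and the coloured TGF-beta genes of day 21 run from -0.51 to 1.34.

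**Figure D2:**
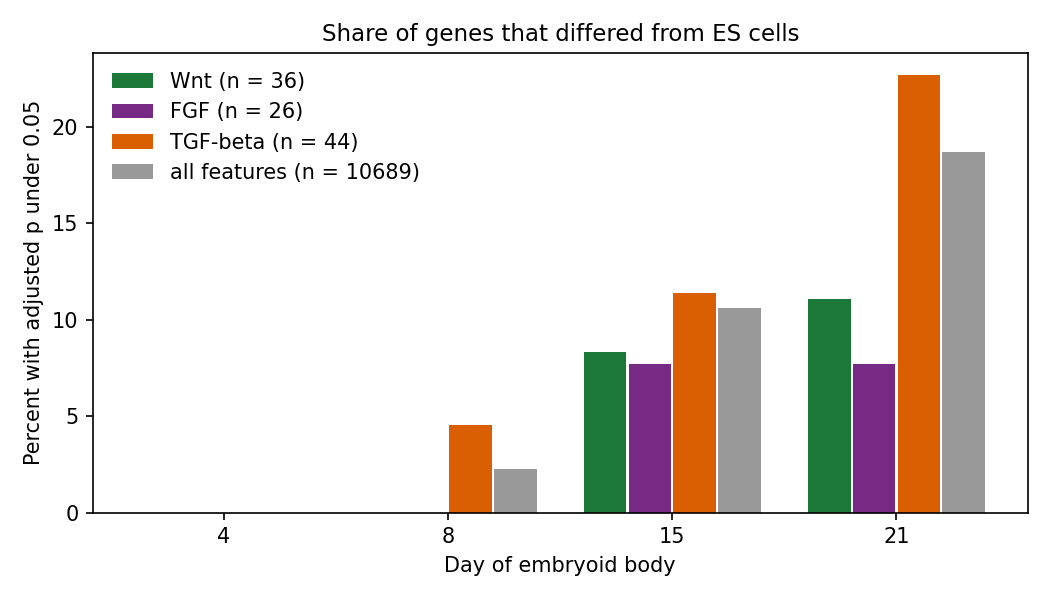
Percent of the genes of each pathway, and of all features, with an adjusted p under 0.05 against ES cells (vertical axis) on each day of EB culture (horizontal axis). At day 21 the bars stand at 11.1% for Wnt, 7.69% for FGF, 22.7% for TGF-beta and 18.7% for all features.

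The counts depend on single arrays and on how the arrays are scaled. Of the 28 calls against ES, 4 held when each of the 12 arrays was left out in turn (Tgfb2 and Fgf11 at day 15, Tgfbi and Fzd2 at day 21). The 10 calls of day 15 became 3 without day 15 array 1 (2.83%, against 2.87% of all features) and 2 without array 2 (1.89%, against 2.2%). The 16 of day 21 became 4 without day 21 array 1 (3.77%, against 7.04% of all features) and 5 without array 2 (4.72%, against 8.16%). They became 8 without day 8 array 2 (7.55%, against 16.1%). The 2 of day 8 became 0 without day 8 array 2 or 3 (against 0.131% and 0.0561% of all features). They became 1 without day 8 array 1, day 4 array 1, day 15 array 1 or 2 or day 21 array 2 (0.943%, against 1.36% to 1.92%). Without day 15 array 3 there were 4 (3.77%, against 3.56%). Scaled to one median absolute value, the arrays gave 4 calls at day 21 and 8 at day 8 (6 higher and 2 lower, against 1 and 1), and quantile normalization gave 5 at day 21, 6 at day 15 and again 8 at day 8 (6 higher and 2 lower). These 8 are 7.55% of the members, against 5.43% of all features with scaling and 4.85% with quantile normalization. The 4 and 5 calls of day 21 are 3.77% and 4.72% of the members, against 9.07% and 9.99% of all features. The 6 of day 15 are 5.66%, against 7.26%. In all, 12 of the 28 calls held under both scalings: Bmp6 and Inhba at day 8, Fgf11, Fgf22, Fzd2, Smad6, Tgfb2 and Tgfbi at day 15, and Fgf11, Fgf22, Fzd2 and Tgfbi at day 21. Of these 12, Fgf11 at day 21 stood at the threshold after scaling (limma, adjusted p = 0.05). With the array set as a term 26 of the 28 held. The 28 had the same sign in both sets, and 8 of the 10 at day 15 and 9 of the 16 at day 21 were larger in size on the first set.

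**Figure D3:**
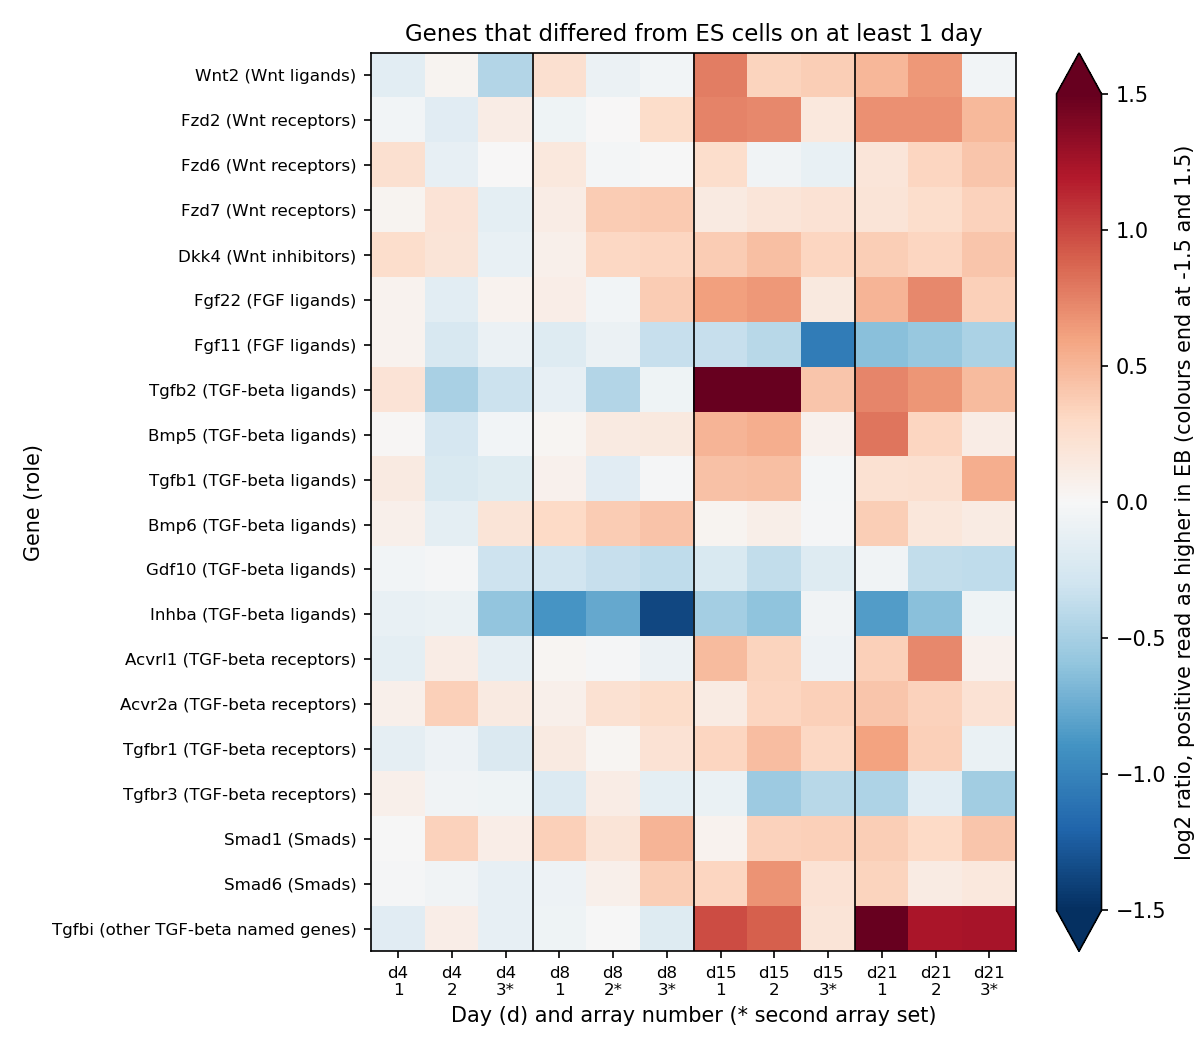
Log2 ratio on each of the 12 arrays (columns, by day and array number, second array set starred) for the 20 genes called against ES cells on at least 1 day (rows, with their role); the colour scale ends at -1.5 and 1.5. Tgfb2 reaches 1.64 and 1.61 on the first-set arrays of day 15 and Tgfbi 1.56 on array 1 of day 21, Inhba is at or below -0.05 on all 12 arrays, and the starred array of day 15 is paler than its neighbours for Tgfb2, Tgfbi, Fzd2 and Fgf22.

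Among the TGF-beta genes the highest mean ratio at day 21 was that of Tgfbi, a matrix protein named for its induction by TGF-beta. Its ratio was -0.17, 0.09 and -0.12 on arrays 1 to 3 of day 4 and -0.06, -0.01 and -0.19 at day 8. It was 0.98, 0.90 and 0.20 at day 15 and 1.56, 1.23 and 1.23 at day 21. All 6 late arrays lay above all 6 early ones, and the second-set array was the low one at day 15 but not at day 21. The mean was 0.69 ± 0.43 (SD, n = 3) at day 15 (adjusted p = 0.00606, limma) and 1.34 ± 0.19 at day 21 (adjusted p = 4.92e-05), the highest of all members. Its day 15 call was lost without day 15 array 1 (0.55, adjusted p = 0.0771) or array 2 (0.59, adjusted p = 0.0861).

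Tgfb2, 1 of the 3 TGF-beta ligands proper, was highest at day 15. Its ratio was 0.20, -0.49 and -0.33 at day 4, -0.12, -0.44 and -0.06 at day 8, 1.64, 1.61 and 0.41 at day 15 and 0.73, 0.67 and 0.47 at day 21. Every late array was above every early one, and day 15 spread widely between the first-set arrays and the second. The mean was 1.22 ± 0.70 at day 15 (adjusted p = 0.00289, limma) and 0.63 ± 0.14 at day 21 (adjusted p = 0.0475). The day 15 call held without any 1 array, with 1.01, 1.03 and 1.63 without arrays 1, 2 and 3 of that day. The day 21 call was lost without any of the arrays of day 21 (0.57 to 0.70, adjusted p from 0.0835 to 0.206), without day 4 array 3 or any array of day 8 (adjusted p up to 0.0596), under both scalings (0.50, adjusted p = 0.138, and 0.51, adjusted p = 0.0749) and with a robust prior (adjusted p = 0.051).

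The other TGF-beta ligands proper moved less. Tgfb1 was 0.13, -0.23 and -0.18 at day 4, 0.06, -0.17 and -0.02 at day 8, 0.44, 0.46 and -0.02 at day 15 and 0.23, 0.24 and 0.55 at day 21. In this fit it passed only at day 21 (0.34 ± 0.18, adjusted p = 0.0498, limma), just inside the threshold. With array weights day 15 passed too (0.40, adjusted p = 0.00307), and the first array set alone gave 0.45 there. The day 21 call was lost without any array of day 21 (0.23 to 0.39, adjusted p from 0.111 to 0.245). It was also lost without any of 7 arrays of other days (day 4 arrays 2 and 3, the 3 arrays of day 8 and day 15 arrays 1 and 2, adjusted p up to 0.0625) and once the array set was a term (0.32, adjusted p = 0.0624). Tgfb3 stood at 0.05 at day 21 (adjusted p = 0.725).

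Inhba encodes the activin A subunit, a Nodal-like signal for mesoderm and endoderm, and had the lowest mean of the TGF-beta ligands at days 8 and 21. Its ratio was -0.11, -0.11 and -0.59 at day 4, -0.89, -0.76 and -1.37 at day 8, -0.51, -0.61 and -0.05 at day 15 and -0.84, -0.62 and -0.06 at day 21. It was below 0 on all 12 arrays, lowest at day 8, and near 0 on the second-set array of both late days. The mean was -1.01 ± 0.32 at day 8 (adjusted p = 0.0166, limma), -0.39 ± 0.30 at day 15 (adjusted p = 0.152) and -0.51 ± 0.40 at day 21 (adjusted p = 0.048). Without day 8 array 2 or 3 the day 8 value was -1.13 (adjusted p = 0.0647) or -0.82 (adjusted p = 0.138). The day 21 call was lost without day 21 array 1 (-0.34, adjusted p = 0.308) or 2 (-0.45, adjusted p = 0.211), without day 4 array 1 or 2, day 8 array 1 or 2 or day 15 array 1 or 2 (adjusted p for these up to 0.0607), under both scalings (adjusted p = 0.136 and 0.0961) and once the array set was a term (adjusted p = 0.0601).

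Among members with a promoter in the table, the 4 with the largest mean ratios on a day they passed are shown, because Tgfbi and Tgfb2 stood higher together in the late EB while Inhba and Fgf11, an intracellular FGF relative, stood lower. Each is the 250 bases before the gene's start, 5′ to 3′ on the gene's strand, from RefSeq on GRCm38.p6: Tgfbi at chr13:56609336-56609585 (+), Tgfb2 at chr1:186705990-186706239 (-), Fgf11 at chr11:69802281-69802530 (-) and Inhba at chr13:16011601-16011850 (+). Capitals mark CTTTG, the core that TCF and LEF factors bind, and CAGAC, a Smad box, on either strand (CAAAG and GTCTG when read on this strand); no base was shared by both motifs.
Tgfbi: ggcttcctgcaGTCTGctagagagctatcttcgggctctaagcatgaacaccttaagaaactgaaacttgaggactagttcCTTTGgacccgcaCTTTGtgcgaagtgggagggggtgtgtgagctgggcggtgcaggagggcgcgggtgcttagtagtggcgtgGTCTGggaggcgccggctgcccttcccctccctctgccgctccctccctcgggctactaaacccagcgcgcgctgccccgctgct
Tgfb2: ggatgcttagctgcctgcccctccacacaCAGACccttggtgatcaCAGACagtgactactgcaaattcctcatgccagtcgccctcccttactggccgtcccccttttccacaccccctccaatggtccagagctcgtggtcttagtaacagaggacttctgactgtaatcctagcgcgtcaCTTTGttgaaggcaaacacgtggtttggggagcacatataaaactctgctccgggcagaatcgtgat
Fgf11: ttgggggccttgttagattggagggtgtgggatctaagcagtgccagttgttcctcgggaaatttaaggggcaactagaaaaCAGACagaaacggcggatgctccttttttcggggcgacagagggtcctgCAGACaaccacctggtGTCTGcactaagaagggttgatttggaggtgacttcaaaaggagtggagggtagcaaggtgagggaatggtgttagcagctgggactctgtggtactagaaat
Inhba: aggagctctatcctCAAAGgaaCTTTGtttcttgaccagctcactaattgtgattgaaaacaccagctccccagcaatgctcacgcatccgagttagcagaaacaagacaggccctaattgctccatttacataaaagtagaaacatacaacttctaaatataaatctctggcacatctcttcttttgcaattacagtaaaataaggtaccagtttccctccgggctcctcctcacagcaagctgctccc
Tgfbi held 2 matches to CTTTG and 2 to CAGAC, Tgfb2 held 1 and 2, Fgf11 held 0 and 3, and Inhba held 2 and 0. Of the 106 members 76 had a promoter in the table. CTTTG was in 34 of these 76 (44.7%), against 48.8% of 27025 promoters of the same length, and CAGAC in 31 (40.8%), against 42.1%. The members' promoters were richer in G and C (median 64.6%, against 52%). A match is a description of the letters and not a bound site.

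Of the BMP and GDF ligands, Bmp6 passed at day 8 and Bmp5 and Gdf10 at day 21. Bmp6 was 0.30, 0.39 and 0.42 at day 8 (0.37 ± 0.06, adjusted p = 0.0346, limma), after 0.07, -0.14 and 0.19 at day 4. It was 0.04, 0.09 and -0.01 at day 15 and 0.37, 0.17 and 0.12 at day 21 (0.22 ± 0.13, adjusted p = 0.0729). Its day 8 arrays lay above those of days 4 and 15 and overlapped those of day 21. The call was lost without any array of day 8 (0.34 to 0.40, adjusted p from 0.0672 to 0.247) and without day 4 array 1, day 15 array 1 or 2 or day 21 array 2 (adjusted p up to 0.0557).

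Bmp5 was 0.02, -0.25 and -0.04 at day 4, 0.03, 0.13 and 0.15 at day 8, 0.51, 0.55 and 0.06 at day 15 and 0.80, 0.32 and 0.11 at day 21. The late first-set arrays were the high ones, and the mean passed at day 21 (0.41 ± 0.35, adjusted p = 0.0378, limma) but not at day 15 (0.37 ± 0.27, adjusted p = 0.0746). The call was lost without day 21 array 1 (0.22, adjusted p = 0.318), day 21 array 2 (0.46, adjusted p = 0.102) or day 8 array 2 (adjusted p = 0.0532) and under both scalings (adjusted p = 0.0886 and 0.0753). Gdf10, a BMP3-like ligand, was -0.04, -0.02 and -0.31 at day 4, -0.28, -0.35 and -0.38 at day 8, -0.22, -0.37 and -0.20 at day 15 and -0.05, -0.37 and -0.38 at day 21. It lay below 0 on all 12 arrays, with a mean of -0.27 ± 0.19 at day 21 (adjusted p = 0.0467, limma) and -0.34 ± 0.05 at day 8 (adjusted p = 0.0626). Day 8 passed with quantile normalization (-0.37, adjusted p = 0.0433), scaling (-0.38, adjusted p = 0.0354) and array weights (-0.34, adjusted p = 0.0127). Its day 21 call was lost without day 21 array 2 (-0.22, adjusted p = 0.231) or 3 (-0.21, adjusted p = 0.196), without day 4 array 1, any array of day 8 or day 15 array 1 or 2 (adjusted p for these up to 0.065) and under both scalings (adjusted p = 0.161 and 0.163).

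The other 16 of the 22 TGF-beta ligands passed on none of the later days in this fit. Their means ran from -0.13 (Inhbb) to 0.16 (Gdf11) at day 8, from -0.61 (Bmp7) to 0.35 (Bmp2) at day 15 and from -0.27 (Bmp10) to 0.16 (Gdf11) at day 21. Bmp7, which shapes kidney and eye, was the lowest of these at day 15 and spread widely, with -1.39, 0.00 and -0.46 (adjusted p = 0.105).

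**Figure D4:**
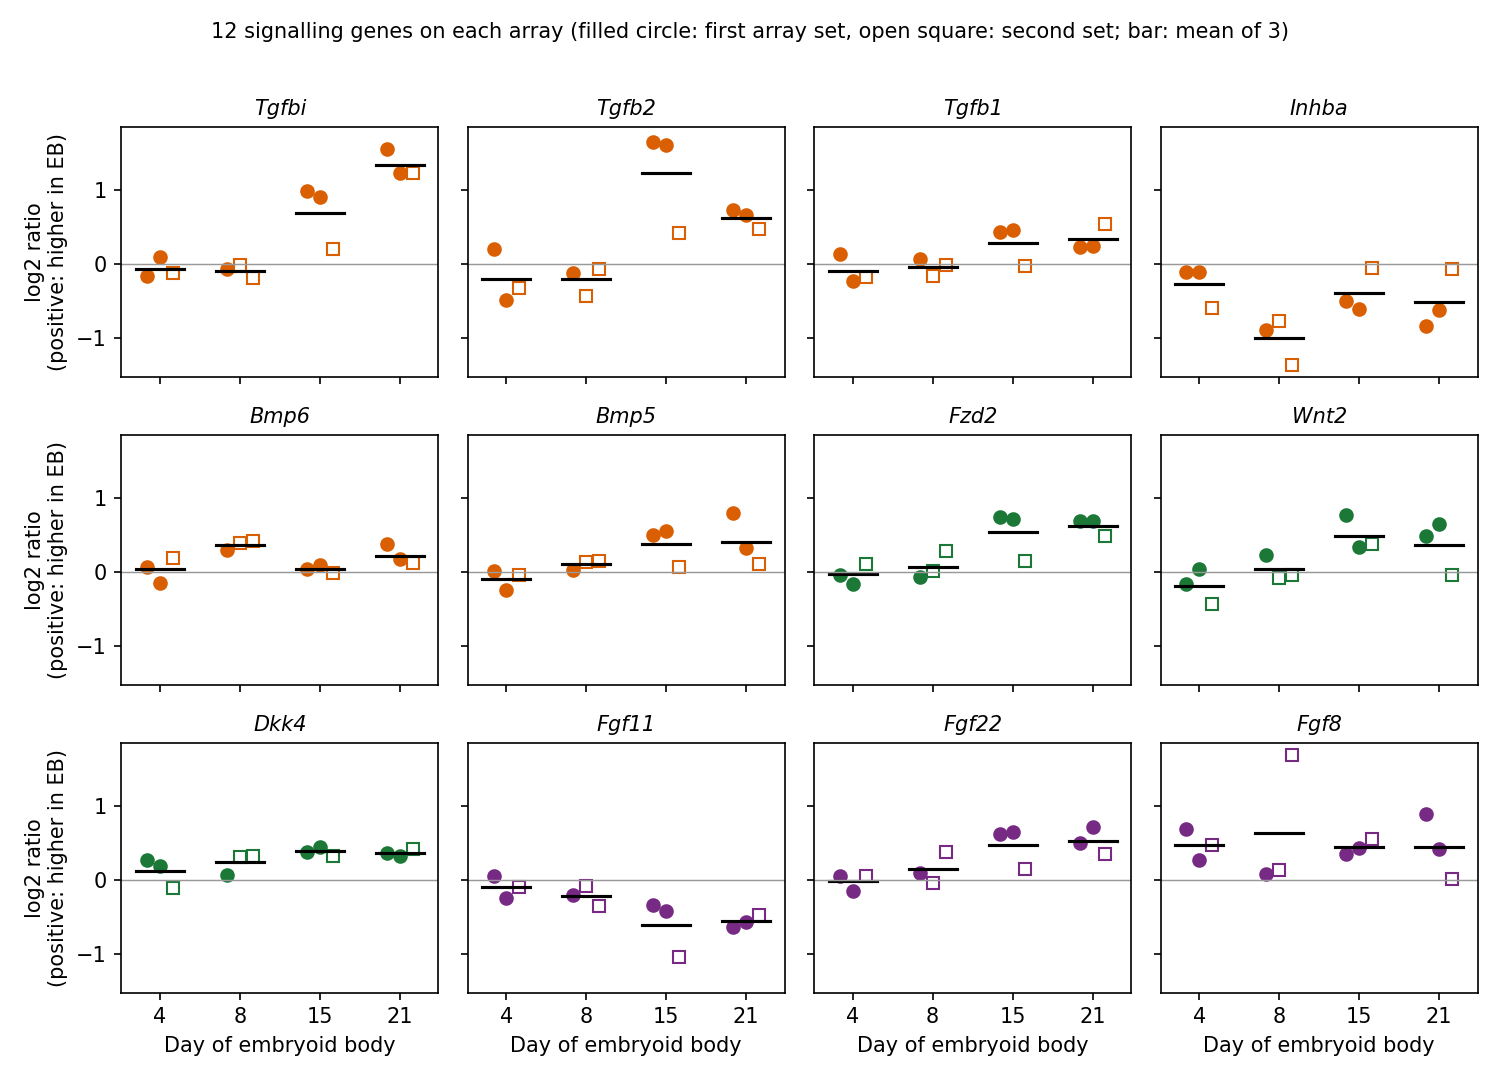
Log2 ratio (vertical axis, positive read as higher in EB) on each array for 12 genes by day of EB culture (horizontal axis); filled circles are the first array set, open squares the second, bars the mean of 3. Tgfbi, Tgfb2 and Fzd2 are above 0 on every array of days 15 and 21, Inhba lies below 0 throughout, and 1 array of day 8 (1.69) sets the Fgf8 mean of that day.

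Of the 11 receptors, 2 were called at day 15 (18.2%, against 10.6% of all features) and 3 at day 21 (27.3%, against 18.7%). In this fit Tgfbr1 passed as higher in EB at day 15, Acvr2a and Acvrl1 at day 21, and Tgfbr3 as lower at both. With array weights Tgfbr1 also passed at day 21 (0.37, adjusted p = 0.0196, limma). So did Acvr2a (0.24, adjusted p = 0.0157) and Acvrl1 (0.36, adjusted p = 0.00877) at day 15. Tgfbr1, the type I TGF-beta receptor, was -0.14, -0.07 and -0.22 at day 4, 0.13, 0.03 and 0.22 at day 8, 0.33, 0.46 and 0.31 at day 15 and 0.60, 0.36 and -0.10 at day 21. It passed at day 15 (0.37 ± 0.08, adjusted p = 0.0479, limma), where no array overlapped those of days 4 or 8, and not at day 21 (0.28 ± 0.36, adjusted p = 0.0844). The call was lost without any array of day 15 (0.32 to 0.39, adjusted p from 0.0738 to 0.281), any array of day 4 or 8, or day 21 array 2 (adjusted p up to 0.0657).

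Acvr2a, a type II receptor for activin, was 0.07, 0.35 and 0.14 at day 4, 0.08, 0.23 and 0.28 at day 8, 0.13, 0.33 and 0.36 at day 15 and 0.41, 0.34 and 0.21 at day 21. It was above 0 on all 12 arrays, and passed at day 21 (0.32 ± 0.10, adjusted p = 0.0163, limma), while the difference between days did not pass (F-test adjusted p = 0.855). The call was lost without day 21 array 1 (0.28, adjusted p = 0.124) or 2 (0.31, adjusted p = 0.089) and under both scalings (adjusted p = 0.0635 and 0.0617). Acvrl1, the ALK1 receptor of endothelial cells, was -0.14, 0.11 and -0.14 at day 4, 0.03, -0.02 and -0.08 at day 8, 0.48, 0.33 and -0.08 at day 15 and 0.35, 0.72 and 0.07 at day 21 (0.38 ± 0.33, adjusted p = 0.0488, limma). Its call was lost without day 21 array 1 (0.39, adjusted p = 0.157) or 2 (0.21, adjusted p = 0.353), without day 4 array 1 or 3, any array of day 8 or day 15 array 2 (adjusted p up to 0.0667) and under both scalings (adjusted p = 0.134 and 0.112). Of 5 endothelial markers, Kdr (0.41 ± 0.14) and Tie1 (0.37 ± 0.10) passed at day 21 (40%, against 18.7% of all features), and 0 passed at day 15. The median of the 5 means was 0.08 at day 21, and the lowest was -0.02. On single arrays the marker median was -0.11, -0.09 and 0.06 at day 15 and 0.15, -0.01 and 0.19 at day 21. The part of endothelial cells in the Acvrl1 result was not tested.

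Tgfbr3, betaglycan, a co-receptor that presents Tgfb2 to the kinases, was lower in EB at both late days. It was 0.08, -0.06 and -0.07 at day 4, -0.21, 0.11 and -0.15 at day 8, -0.09, -0.55 and -0.42 at day 15 (-0.35 ± 0.23, adjusted p = 0.0464, limma) and -0.47, -0.15 and -0.52 at day 21 (-0.38 ± 0.20, adjusted p = 0.0228). The late values overlapped the early ones on 1 array of each day. At day 15 the call was lost without array 2 (-0.26, adjusted p = 0.337) or 3 (-0.32, adjusted p = 0.125) of that day, and without any array of day 4, day 8 array 1 or 3 or day 21 array 1 (adjusted p for these up to 0.0603). The day 21 call was lost without day 21 array 1 (-0.34, adjusted p = 0.143) or 3 (-0.31, adjusted p = 0.116), and neither held under the scalings.

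The other 7 receptors passed on none of the later days in this fit. Acvr1, the ALK2 receptor for BMP ligands, came closest at day 8 with 0.52, 0.61 and 0.97 (0.70 ± 0.24, adjusted p = 0.0558, limma). It passed at day 8 with the array set as a term (0.74, adjusted p = 0.0308), quantile normalization (0.75, adjusted p = 0.0159), scaling (0.77, adjusted p = 0.016) and array weights (0.66, adjusted p = 0.00944). At day 21 its first-set arrays were 0.80 and 0.59 and its second-set array -0.22 (0.39 ± 0.54, adjusted p = 0.134). With array weights Acvr1 also passed at day 15 (0.53, adjusted p = 0.00778) and day 21 (0.51, adjusted p = 0.0301). The first array set alone gave 0.57 and 0.70 on these days. Tgfbr2, the type II TGF-beta receptor, was 0.24, 0.24 and -0.21 at day 4, 0.18, 0.09 and -0.32 at day 8, 0.37, 0.26 and -0.14 at day 15 and 0.44, 0.29 and -0.15 at day 21. It followed the array set more than the day: all 7 first-set arrays were above 0 and 4 of the 5 second-set arrays below, with a set difference of 0.43 (adjusted p = 0.0461, limma), the only one of the 106 members (0.943%) to pass that test, against 118 features (1.1%).

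The median of the 11 receptors on single arrays was 0.28, 0.26 and -0.076 at day 15 and 0.35, 0.29 and -0.10 at day 21. The second-set array of each late day was thus the low one, and the part of the array set in the receptor values was not tested beyond the fit with the set as a term. The median over all features on these arrays lay between -0.0008 and 0.0106. The probes of Bmpr1a, a type I BMP receptor, differed, with 0.16 on one and -0.41 on the other at day 21.

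Among the 7 Smads, the intracellular carriers of the signal, 1 passed at each late day (14.3%, against 10.6% and 18.7% of all features). Smad1, which BMP receptors phosphorylate, was -0.01, 0.35 and 0.09 at day 4, 0.36, 0.19 and 0.51 at day 8, 0.05, 0.34 and 0.36 at day 15 and 0.37, 0.29 and 0.41 at day 21. It passed at day 21 (0.36 ± 0.06, adjusted p = 0.0182, limma), with day 8 at a like level and a wider spread (0.35 ± 0.16, adjusted p = 0.068). Day 8 passed with quantile normalization (0.38, adjusted p = 0.0371), scaling (0.37, adjusted p = 0.0316) and array weights (0.29, adjusted p = 0.0481). The day 21 call was lost without any array of day 21 (0.33 to 0.39, adjusted p from 0.0647 to 0.0981) and, after scaling, just missed the threshold (0.30, adjusted p = 0.0529).

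Smad6, an inhibitory Smad, was -0.02, -0.05 and -0.13 at day 4, -0.07, 0.07 and 0.37 at day 8, 0.32, 0.68 and 0.22 at day 15 (0.41 ± 0.24, adjusted p = 0.0247, limma) and 0.34, 0.12 and 0.15 at day 21 (0.20 ± 0.12, adjusted p = 0.186). The day 15 call was lost without day 15 array 1 (0.45, adjusted p = 0.0902) or 2 (0.27, adjusted p = 0.259). Smad5, another BMP Smad, was 0.62, 0.49 and 0.22 at day 8 (0.45 ± 0.20, adjusted p = 0.066). It passed at day 8 with the array set as a term (0.49, adjusted p = 0.0198), quantile normalization (0.57, adjusted p = 0.0325), scaling (0.52, adjusted p = 0.0327) and array weights (0.46, adjusted p = 0.00917). Smad2, Smad3 and Smad4, the Smads of TGF-beta and activin and their shared partner, had means between 0.10 and 0.18 at day 21. They passed on no day in this fit, and Smad9 was the lowest at -0.17.

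The remaining genes of the family named for it, Bmp1 (a protease that trims procollagen), Bmp2k (a kinase) and Bmper (a secreted BMP binder), had means between -0.18 (Bmp2k) and 0.01 (Bmp1) at day 21 and passed on no day.

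Of the 5 Wnt genes called on any day, 3 were receptors, 1 a ligand and 1 an inhibitor. Of 9 Frizzled genes 3 were called at day 21 (33.3%, against 18.7% of all features), all higher in EB (against 8.78%), and none was called lower on any day. The median of the 9 on single arrays of day 21 was 0.19, 0.25 and 0.16. Fzd2 was -0.04, -0.17 and 0.11 at day 4, -0.07, 0.01 and 0.28 at day 8, 0.74, 0.72 and 0.15 at day 15 and 0.69, 0.69 and 0.49 at day 21. At day 21 every array was above every array of days 4 and 8, and at day 15 the second-set array overlapped day 8. The mean was 0.54 ± 0.33 at day 15 (adjusted p = 0.0115, limma) and 0.62 ± 0.12 at day 21 (adjusted p = 0.00315). Without day 15 array 1 (0.44, adjusted p = 0.118) or 2 (0.45, adjusted p = 0.134) the day 15 call was lost.

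Fzd2 was measured by 2 probes that differed in size. One stood at 0.94 at day 15 (adjusted p = 0.00155, limma) and 0.90 at day 21 (adjusted p = 0.00107), the other at 0.14 (adjusted p = 0.534) and 0.35 (adjusted p = 0.075). The calls of Fzd2 therefore rest on 1 probe, with the same sign on the other.

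Fzd6 was 0.24, -0.13 and 0.01 at day 4, 0.16, -0.03 and -0.01 at day 8, 0.26, -0.06 and -0.11 at day 15 and 0.19, 0.33 and 0.41 at day 21 (0.31 ± 0.11, adjusted p = 0.039, limma). Fzd7, a Frizzled that ES cells themselves use, was 0.04, 0.21 and -0.15 at day 4, 0.11, 0.38 and 0.39 at day 8, 0.14, 0.19 and 0.22 at day 15 and 0.20, 0.26 and 0.34 at day 21 (0.27 ± 0.07, adjusted p = 0.0428). Both overlapped the earlier days at day 21. The Fzd6 call was lost without any array of day 21 (0.26 to 0.37, adjusted p from 0.0815 to 0.158) or day 8 array 2 (adjusted p = 0.0534), and that of Fzd7 without any array of day 21 (0.23 to 0.30, adjusted p from 0.108 to 0.158) or day 4 array 1, day 8 array 2 or day 15 array 1 or 2 (adjusted p up to 0.0581). Under both scalings the adjusted p was 0.135 and 0.13 for Fzd6 and 0.175 and 0.153 for Fzd7. Fzd8 came next, with 0.30, 0.25 and 0.16 at day 21 (0.24 ± 0.07, adjusted p = 0.0617), and the lowest Frizzled was Fzd3 with 0.05, -0.29 and -0.14 (-0.13 ± 0.17, adjusted p = 0.467).

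Of the 19 Wnt ligands only Wnt2 passed in this fit, at day 15 (5.26%, against 10.6% of all features). Wnt2, a ligand of heart, lung and placental vessels, was -0.16, 0.04 and -0.44 at day 4, 0.23, -0.09 and -0.04 at day 8, 0.77, 0.33 and 0.37 at day 15 (0.49 ± 0.24, adjusted p = 0.0383, limma) and 0.49, 0.65 and -0.04 at day 21 (0.37 ± 0.36, adjusted p = 0.0792). Its day 15 arrays lay above those of days 4 and 8, and at day 21 only the second-set array fell among them. With the array set as a term day 21 passed too (0.31, adjusted p = 0.0463). The day 15 call was lost without any array of day 15 (0.35 to 0.57, adjusted p from 0.0509 to 0.265), without day 4 array 1 or day 8 array 2 (adjusted p up to 0.0533) and after quantile normalization (0.43, adjusted p = 0.0642).

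The other 18 Wnt ligands ran from -0.26 (Wnt6) to 0.25 (Wnt3) at day 8, from -0.22 (Wnt6) to 0.33 (Wnt11) at day 15 and from -0.22 (Wnt6) to 0.27 (Wnt3) at day 21. Wnt3, a ligand of the primitive streak, was 0.25, 0.32 and 0.25 at day 21 (adjusted p = 0.132), with its 3 arrays close together. Wnt6 was -0.39, -0.34 and 0.06 (adjusted p = 0.297). The median of all 19 ligands was 0.033 at day 21.

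The inhibitor that passed was Dkk4, which blocks the Wnt co-receptors. It was 0.27, 0.19 and -0.11 at day 4, 0.07, 0.31 and 0.32 at day 8, 0.38, 0.45 and 0.33 at day 15 and 0.37, 0.32 and 0.42 at day 21. The 6 late arrays lay close together, above all of day 4 and level with or above the higher arrays of day 8. The mean was 0.39 ± 0.06 at day 15 (adjusted p = 0.0129, limma) and 0.37 ± 0.05 at day 21 (adjusted p = 0.01). It was lost at day 15 without array 1 (0.39, adjusted p = 0.0836) or 2 (0.35, adjusted p = 0.124) and after quantile normalization (adjusted p = 0.0583), and at day 21 without array 1 (0.37, adjusted p = 0.0631) and under both scalings (0.30, adjusted p = 0.0753, and 0.32, adjusted p = 0.0713).

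The other 7 inhibitors ran from -0.08 (Sfrp4) to 0.34 (Dkk3) at day 21. For Dkk3 and Sfrp1 single arrays set the mean: Dkk3 was 0.12, 0.93 and -0.01 (adjusted p = 0.111) and Sfrp1 0.40, 0.36 and -0.53 (adjusted p = 0.781). Dkk1, the head-inducing inhibitor, was 0.64, 0.55 and -0.15 at day 15 (adjusted p = 0.135), and Sfrp4 -0.40, -0.05 and 0.21 at day 21.

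Of the 22 genes grouped by name as FGF ligands, Fgf22 was higher and Fgf11 lower in the late EB. These 2 calls are 9.09% at each late day, against 10.6% and 18.7% of all features. Fgf11, 1 of the FGF homologous factors that stay inside the cell and bind sodium channels, was 0.06, -0.24 and -0.09 at day 4 and -0.20, -0.09 and -0.35 at day 8. It was -0.34, -0.42 and -1.05 at day 15 (-0.60 ± 0.39, adjusted p = 0.00742, limma) and -0.63, -0.57 and -0.47 at day 21 (-0.56 ± 0.08, adjusted p = 0.00694). All arrays of day 21 lay below all of days 4 and 8, and the second-set array was the lowest at day 15. The day 15 call held without any 1 array, at -0.38 without array 3 of that day (adjusted p = 0.0227), and that of day 21 was lost only without day 21 array 1 (-0.52, adjusted p = 0.0615).

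Fgf22, a secreted FGF of skin and of synapses, was 0.06, -0.15 and 0.06 at day 4, 0.10, -0.04 and 0.38 at day 8, 0.62, 0.65 and 0.15 at day 15 (0.47 ± 0.28, adjusted p = 0.0204, limma) and 0.51, 0.72 and 0.36 at day 21 (0.53 ± 0.18, adjusted p = 0.0074). The late arrays overlapped day 8 through its array 3. The call was lost at day 15 without array 1 (0.40, adjusted p = 0.157) or 2 (0.38, adjusted p = 0.197) and at day 21 without array 2 (0.43, adjusted p = 0.0788). Fgf11 and Fgf22 kept their calls at both late days under both scalings, with Fgf11 at day 21 at the threshold after scaling (-0.45, adjusted p = 0.05). Both lost the day 15 call when the arrays of that day were fitted alone.

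The FGF ligands best known from ES cells and the early embryo passed on no day in this fit. Fgf4, the FGF that ES cells make themselves, was -0.39, -0.69 and -0.10 at day 15 (-0.39 ± 0.29, adjusted p = 0.151, limma) and -0.50, -0.42 and 0.04 at day 21 (-0.29 ± 0.29, adjusted p = 0.242), with the second-set array nearest 0 on each day. It passed at day 15 with array weights (-0.50, adjusted p = 0.0105), and on the first array set alone at day 15 (-0.54, adjusted p = 0.012) and day 21 (-0.46, adjusted p = 0.0189). Fgf5, the marker of the primed epiblast, was above 0 on all 12 arrays, with means of 0.22 ± 0.10, 0.29 ± 0.22, 0.21 ± 0.05 and 0.24 ± 0.05 on the 4 days (adjusted p = 0.387, 0.0886, 0.125 and 0.0601). It passed at day 8 with quantile normalization (0.29, adjusted p = 0.0499) and scaling (0.30, adjusted p = 0.0441), and with array weights at days 8, 15 and 21 (adjusted p from 0.0443 to 0.0495). Fgf8, a ligand of gastrulation, was also above 0 on all 12: 0.69, 0.27 and 0.47 at day 4, 0.08, 0.13 and 1.69 at day 8, 0.34, 0.43 and 0.55 at day 15 and 0.89, 0.42 and 0.02 at day 21. Its mean was 0.64 ± 0.91 at day 8 (adjusted p = 0.192) and 0.44 ± 0.44 at day 21 (adjusted p = 0.238), where the first set alone gave 0.66 (adjusted p = 0.0194).

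The 20 genes grouped as FGF ligands and not called ran from -0.39 (Fgf4) to 0.44 (Fgf8) at day 15. At day 21 they ran from -0.37 (Fgf18) to 0.44 (Fgf8). Fgf18 was 0.02, -1.14 and 0.01 at day 21, with 1 array far below the others (-0.37 ± 0.66, adjusted p = 0.163, limma). Fgf7, a growth factor of epithelia made by stroma, was below 0 on all 12 arrays, with -0.28 at day 8 (adjusted p = 0.232). The 4 FGF receptors passed on no day in this fit: their means ran from 0.15 (Fgfr3) to 0.34 (Fgfr4, adjusted p = 0.0966; 0.0433 and 0.0441 under the 2 scalings) at day 8, where each was above 0 on all 3 arrays, and from -0.01 (Fgfr3) to 0.19 (Fgfr1) at day 21.

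Between days few members differed. No member passed for day 8 against day 4 (9 at an unadjusted p under 0.05, with 0% of all features called and 6.98% at that p), for day 15 against day 8 (8 unadjusted, with 0.178% of features called and 9.22% at that p) or for day 21 against day 15 (3 unadjusted, with 0.00936% and 6.31%). For day 21 against day 4, 2 members passed (17 unadjusted, with 5.84% of features called and 19.6% unadjusted), and in limma's F-test of any difference between days 2 (15 unadjusted, with 2.9% and 15.7%). Tgfbi rose by 1.40 from day 4 to day 21 (adjusted p = 0.0016) and passed the F-test (adjusted p = 0.00304), and both held without any 1 array and under both scalings. Fzd2 rose by 0.65 from day 4 to day 21 (adjusted p = 0.035), which was lost without day 4 array 1 or 2, day 21 array 1 or 2 or day 8 array 2 (0.58 to 0.65, adjusted p from 0.0538 to 0.131), under both scalings (0.51, adjusted p = 0.0933, and 0.53, adjusted p = 0.0575) and with the array number as a block (adjusted p = 0.0527).

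Tgfb2 passed the F-test (adjusted p = 0.0314, limma) with its high value at day 15. The step from day 8 to day 15 was 1.43 (adjusted p = 0.0791) and that from day 15 to day 21 -0.60 (adjusted p = 0.8), so neither single step passed. The F-test was lost without any of 8 arrays (day 4 array 2 or 3, day 8 array 1 or 2, day 15 array 1 or 2, day 21 array 1 or 2, adjusted p from 0.0543 to 0.0974). Differences in the number of calls between one day and another were not tested.

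The other genes of the pathways, read from lists of co-receptors, transducers, matrix partners and targets, are set against 2.28%, 10.6% and 18.7% of all features called at days 8, 15 and 21. Of 36 other Wnt genes measured, 1 passed at day 8 (2.78%), 1 at day 15 (2.78%) and 4 at day 21 (11.1%; 3 higher and 1 lower). Ccn4 (Wisp1), a matricellular Wnt target, stood at 1.86 ± 0.56 at day 21 (adjusted p = 0.00332, limma), Frzb, a secreted inhibitor, at 0.65 ± 0.41 (adjusted p = 0.023) and Sp5, a direct target of beta-catenin, at 0.42 ± 0.21 (adjusted p = 0.00715). Apc, a scaffold of the complex that degrades beta-catenin, was lower (-0.38 ± 0.16, adjusted p = 0.0177). Porcn, which acylates Wnt ligands, passed at day 8 alone (0.62 ± 0.19, adjusted p = 0.019) and the kinase Gsk3b at day 15 alone (0.50 ± 0.15, adjusted p = 0.00306).

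Of 36 other FGF genes, 0 passed at day 8, 6 at day 15 (16.7%; 4 higher and 2 lower) and 4 at day 21 (11.1%), all higher. Gpc3, a heparan sulphate proteoglycan that binds growth factors, was at 1.46 ± 0.29 at day 15 and 1.63 ± 0.07 at day 21 (adjusted p = 2.02e-04, limma). Ext2, an enzyme that builds heparan sulphate, was at 0.40 ± 0.15 at day 21 (adjusted p = 0.00619), Sos2 at 0.30 ± 0.12 and Gpc1 at 0.23 ± 0.04. Lower at day 15 were Etv5, a transcription factor induced by FGF (-0.60 ± 0.49, adjusted p = 0.0201), and the adaptor Gab1 (-0.42 ± 0.20, adjusted p = 0.022).

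Of 44 other TGF-beta genes, 2 passed at day 8 (4.55%, both higher), 6 at day 15 (13.6%; 4 higher and 2 lower) and 14 at day 21 (31.8%; 9 higher and 5 lower). The lower ones at day 21 held the Nodal genes of the pluripotent state: Nodal itself (-0.61 ± 0.16, adjusted p = 0.00162, limma), its co-receptor Tdgf1 (-1.78 ± 0.63, adjusted p = 0.00395) and its transcription partner Foxh1 (-0.73 ± 0.38, adjusted p = 0.00793), beside the repressor Tgif1 (-0.82 ± 0.24, adjusted p = 0.00117) and Fstl3. The higher ones were led by Dcn, a matrix proteoglycan that binds TGF-beta (1.39 ± 0.28, adjusted p = 0.00147), the BMP targets Id2 (1.02 ± 0.22, adjusted p = 4.66e-04) and Id3 (0.94 ± 0.29, adjusted p = 0.00325), and the pseudoreceptor Bambi (0.80 ± 0.42, adjusted p = 0.0114). Tdgf1 is also 1 of the ES cell markers below.

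Markers of cell types also moved, and are set against 2.28%, 10.6% and 18.7% of all features called at days 8, 15 and 21. At day 8, where 1.89% of the members were called, 5 of 8 ES cell markers were already lower (62.5%). So was 1 of 6 neural markers (16.7%), while 3 of 8 endoderm markers (37.5%) and 1 of 8 mesenchymal ones (12.5%) were higher. No heart muscle, endothelial or blood marker was called at that day. All 8 markers of undifferentiated ES cells were lower at days 15 and 21, with array medians between -2.10 and -1.08. Of 8 markers of visceral endoderm and yolk sac 6 were higher at both late days, and their array medians were 2.57, 2.27 and 1.42 at day 15 and 2.93, 2.44 and 1.13 at day 21, lowest on the second-set array each time. Of 8 markers of mesenchyme and fibroblasts 4 were higher and 1 (Thy1) lower at day 15, and 6 higher and 1 lower at day 21, with array medians of 0.86, 0.90 and 0.42 at day 15 and 1.18, 0.86 and 0.98 at day 21. At day 15 the second-set array lay nearest 0 for these mesenchymal medians, as for Tgfbi and Tgfb2. It also lay nearest 0 for the endoderm markers, the ES cell markers (-1.57, -1.67 and -1.08) and the heart muscle markers (0.50, 0.49 and 0.21). The blood markers differed (0.92, 0.05 and 0.15). Of 6 heart muscle markers 3 were higher at both late days (50%), and of 5 blood markers 1 at day 15 (20%) and none at day 21. Of 6 neural markers 1 (Stmn2) was lower (16.7%). ES cell and endoderm genes helped to choose the direction of the ratio, so their directions are no support for it. The part of any cell type in the ratios of the signalling genes was not tested.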

How the data were processed

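RNA of ES cells and of EB was compared on 12 arrays with 2 colours. Per the labels' protocols, double-stranded cDNA was made from total RNA and used as template for dye-labelled cRNA. The deposited values are read as log2 ratios normalized by the authors; base 2 is a convention, and the normalization, background correction and scanner are not given in the sources used here. Each column has a median between -0.0018 and 0.0106 with 0 missing values. Signal intensities and a filter on dim probes were not used here. The number of arrays limits the precision.

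Probes were named from GEO's platform annotation: 10043 had 1 symbol (10025 matched RefSeq GRCm38.p6 by Entrez ID), 29 several and 1448 none. Probes of a gene were averaged, leaving 9212 genes and 1477 lone features, 10689 in all. Of the members, 8 had 2 probes. limma 3.58.1 in R 4.3.3 fitted 1 mean for each day over all 12 arrays (8 residual and 4.355 prior degrees of freedom), with two-sided tests against 0 and between days adjusted by Benjamini-Hochberg over all features. Tested on simulated data for day 21 against ES over 10689 features, the fit recovered 61% of shifts of 0.5 and 95% of shifts of 1. In these data 100 genes were shifted at each size, and 11 calls were false. Errors after ± are standard deviations over 3 arrays.

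The members and lists were chosen with earlier results of these data known. Values are given by array for called members and for the highest and lowest of each role at day 21; of the other pathway genes, up to 4 called each way with the largest day 21 means. A few others are given by array, chosen after their values were seen. Other pathway lists held 49 Wnt, 51 FGF and 58 TGF-beta genes. Alternatives were quantile normalization, scaling, array weights, the array set, the array number, single days, separate probes, a robust prior, named genes alone, each array left out and, chosen after seeing the data, each array set alone. Array numbers were not treated as pairs, since correlations of the deviations of same-numbered arrays ran from -0.14 to 0.39; those of days 15 and 21 were 0.15 to 0.39, and no member was called between these days with or without the number as a block.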

Additional observations from a re-analysis of the deposited data

Results flagged for a closer look

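For 3 members the ratio against ES differed between days, by 1 of 2 tests of the difference itself in limma. The F-test over the 4 days called 2 members (1.89%, against 2.9% of all features). Day 21 against day 4 also called 2 (1.89%, against 5.84%). Tgfbi differed over the 4 days (adjusted p = 0.00304), with the late arrays above the early ones. Tgfb2 differed over the 4 days (adjusted p = 0.0314), highest at day 15. Fzd2 differed between day 21 and day 4 (adjusted p = 0.035), while its test over the 4 days did not pass (adjusted p = 0.0732). The Fzd2 difference was lost under both scalings and with the array number as a block. The results of Tgfb2 and Fzd2 were each lost without some single arrays. No group had 4 arrays, so none was tested for an array that stands apart.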

How the results depend on the processing

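No member and no pathway count changed the direction of a called value under any alternative run. Counts of called members were 2, 10 and 16 at days 8, 15 and 21, 2 for day 21 against day 4 and 2 for any difference between days. At day 8 they were 8 with quantile normalization (7.55%, against 4.85% of all features) and 8 with scaling (against 5.43%). There were 9 with array weights (8.49%, against 9.35%), 4 with the array set as a term (3.77%, against 4.25%) and 0 with the arrays of that day alone (against 0.00936%). At day 15 they were 6 with quantile normalization (5.66%, against 7.26%) and 35 with array weights (33% of members, against 30.4% of all features). There were 0 with that day alone (against 2.42%) and 20 on the first set alone (18.9%, against 16.3%). At day 21 they were 5 with quantile normalization (4.72%, against 9.99%), 4 with scaling (3.77%, against 9.07%) and 7 with that day alone (6.6%, against 13%). For day 15 against day 8, otherwise 0, they were 5 with array weights (4.72%, against 5.44%). For day 21 against day 4 they were 1 with quantile normalization (0.943%, against 3.5%), 1 with scaling (against 2.88%) and 1 with the replicate block (against 5.74%). There were 10 with array weights (9.43%, against 12.6%) and 6 on the first set (5.66%, against 7.76%). For any difference between days they were 13 with array weights (12.3%, against 13.2%). Each array set alone leaves a single array on some days, and counts that rest on such a day are not given. The cause of these shifts in the counts was not tested.

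Leaving out 1 array at a time gave 0 to 4 calls at day 8, 2 to 13 at day 15 and 4 to 16 at day 21. It gave 0 to 3 for day 15 against day 8, 1 to 5 for day 21 against day 4 and 1 to 4 for any difference. In the same order, the shares of all features called were 0.0561% to 3.56%, 2.2% to 14.5%, 7.04% to 20.8%, 0.0374% to 1.18%, 2.09% to 7.23% and 0.945% to 5.08%. Counts at day 4, for day 8 against day 4 and for day 21 against day 15 were 0 under all of these. The Wnt median at day 21 (0.0855) became 0.0533 with quantile normalization and 0.0491 with scaling, and 0.0517 to 0.1111 without 1 array. The TGF-beta median at day 8 (-0.0085) became 0.0023 to 0.0525 without 1 array, which turns the sign of a median close to 0. Without 1 array the TGF-beta median was 0.0387 to 0.1543 at day 15 and 0.0521 to 0.1277 at day 21, the FGF median 0.0049 to 0.0308 and 0.0511 to 0.0828, and all 3 medians of days 4 and 8 lay between -0.0277 and 0.0588.

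Not every correlation of same-numbered arrays was over 0.1: they ran from -0.14 to 0.39 (median 0.081, 18 pairs), against -0.32 to 0.19 for arrays of different number (median -0.034, 36 pairs), and those of arrays of one set from -0.086 to 0.39 (27 pairs). The 3 same-numbered pairs of days 15 and 21 (0.15 to 0.39), each of 1 set, were all over 0.1. With the replicate block 25 of the 28 calls against ES held. It gave 3, 9 and 15 called members at days 8, 15 and 21 (2.83%, 8.49% and 14.2%, against 3.27%, 11.6% and 19% of all features). Tgfbr3 at day 15 (limma, adjusted p = 0.0542) and Inhba (adjusted p = 0.0652) and Tgfb1 (adjusted p = 0.0575) at day 21 did not hold. The separate dye bias of a gene, the log base and the signal over background cannot be judged from these values.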
